A study of Homo sapiens with 9 samples.

Results

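The TIG1A and TIG1B stable lines are sister lines of HCT116, a colon cancer cell line, that make a long or a short isoform of the same protein when mifepristone (MFP) is added. The comparison of these lines rests on 6 of the 9 arrays of the series, 3 for each line, chosen by their labels alone. Control arrays were not used. Both lines carried the stably integrated plasmid pSwitch of the GeneSwitch system, which encodes an MFP-dependent transactivator. The TIG1A line also carried pTIG1A-V5, which encodes 294 amino acids of TIG1A. The TIG1B line carried pTIG1B-V5, which encodes 228 amino acids of TIG1B. Per the labels both proteins were tagged with Myc and His behind the last residue. The paper instead describes cloning in frame into a vector with V5 and His tags. All 6 cultures had received 5 nM MFP for 24 hr. Each line is a single stable clone, so that the isoform and whatever else separates the clones cannot be told apart in any value that follows. The question is which transcripts differ in level between cells that express the long and the short isoform.

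TIG1 is the product of RARRES1, a gene first found as a target of retinoids, which act through nuclear retinoic acid receptors. The protein spans the membrane, resembles the carboxypeptidase inhibitor latexin, and its loss by promoter methylation is known from several carcinomas. In the intestinal epithelium, from which HCT116 cells derive, the balance of growth and differentiation is known to depend on Wnt, ERK, Notch and BMP signalling, and genes of these pathways are described in turn below.

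Each culture gave RNA for 1 Affymetrix expression array of the HG-U133 Plus 2.0 type, on which a gene is read by 1 or more probe sets, and each value is a signal intensity on a linear scale. The mean without the lowest and highest 2% was 500 on every array, and the median intensity ranged from 59.9 to 69.9. Values were compared as log2, with 1 as the lowest intensity allowed. Only probe sets as bright as the array's median or brighter on 2 or 3 arrays of one line entered the comparison, namely 28522 probe sets for 12887 genes. The lines were compared by limma's moderated test, and p-values were adjusted over all kept probe sets by the Benjamini-Hochberg procedure, with a threshold of 0.05 for a call. All log2 differences are TIG1A minus TIG1B. Where all 3 arrays of a line were dimmer than their medians, the fold was taken against those medians and is a lower bound. Arrays correlated at r = 0.917 to 0.963, and those numbered 1 deviated most from the mean of their line in both lines, by 0.508 and 0.505 on the log2 scale against 0.39 to 0.436 on the other arrays. The GAPDH 3' to 5' signal ratio was 1.005 and 1.006 on those arrays and 0.899 to 0.905 on the others, with means of 0.938 in TIG1A and 0.936 in TIG1B cells (exact two-sided permutation test, p = 0.8, the smallest p of this design being 0.1).

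Of the epithelial marker genes EPCAM, KRT8, KRT18, KRT19, CDH1, CLDN4, CLDN7 and VIL1, all 8 passed the intensity filter and none was called. KRT18, a keratin of simple epithelia, had mean intensities of 58484 in TIG1A and 60234 in TIG1B cells. E-cadherin (CDH1) had 6360 and 4888, with no overlap between the lines. Of the 8 markers, 1 was higher and 1 lower in TIG1A cells with no overlap. Their log2 differences ran from -0.636 to 0.377, with a median of 0.007. Of 18 markers of fibroblasts, endothelium and leukocytes only THY1 and PECAM1 passed the filter, at mean intensities of 59.5 and 87.3 in TIG1A and 79.9 and 128 in TIG1B cells.

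RARRES1 itself was read by 2 kept probe sets (chromosome 3 of GRCh38.p14, from 158696892 to 158732457). The brighter gave intensities of 66754, 58452 and 63438 in TIG1A cells and 44513, 37082 and 36413 in TIG1B cells. On the other, the TIG1A arrays gave 56404, 41198 and 45689 and the TIG1B arrays 27085, 19538 and 18603. Every TIG1A array lay above every TIG1B array on both. The log2 differences were 0.68 (95% confidence interval 0.35 to 1.01) and 1.14 (0.63 to 1.66), but neither passed the threshold (limma, adjusted p = 0.105 and 0.0884). The transcript of the induced gene was thus abundant in both lines, and its higher mean signal in TIG1A cells stands beside all differences below. Its part in them was not tested. Whether the 2 probe sets lie in sequence shared by both isoforms was not examined, so the signals may not compare levels alone.

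In TIG1A cells 86 probe sets were called higher and 49 lower than in TIG1B cells, together 135, which is 0.473% of those tested (0.302% higher and 0.172% lower). They name 70 genes higher and 42 lower in TIG1A cells, and 14 carry no single gene symbol. At a difference of at least 2-fold, 126 remained, 82 higher and 44 lower. With each array centred on its median, 19 were called higher and 5 lower. Except for FUT7 and EHF all calls were close to the threshold, with adjusted p-values between 0.04 and 0.0488 from limma, and 4828 probe sets had an unadjusted p under 0.05. With any 1 of the 6 arrays left out, between 1 and 3 probe sets passed, and with a term for the replicate number or without both arrays numbered 1 none did, although all 135 kept their direction and an unadjusted p under 0.05 in each of these fits. The lines did not overlap on any of the 135 called probe sets, and did not overlap on 25% of all kept probe sets (7137). Of the 112 called genes, 8 were called on more than 1 probe set. Among the 112 further kept probe sets of called genes, 100 pointed the same way, 72 of them at an unadjusted p under 0.05, and 12 the other way, 3 of them at that level.

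**Figure D1:**
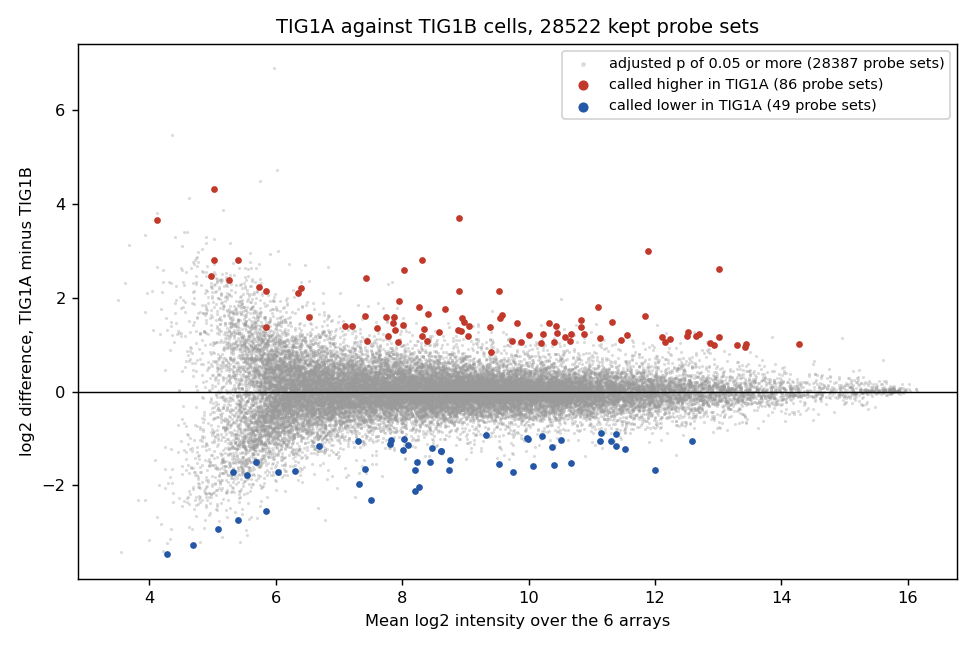
Mean log2 intensity over the 6 arrays (horizontal axis) and log2 difference between the lines (vertical axis) for 28522 kept probe sets, with the 86 called higher in TIG1A cells in red, the 49 called lower in blue and all others in grey. The smallest called difference is 0.84 on the log2 scale.

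The largest difference among called genes, once intensities had been raised to the array median, was that of KCNK9, a background potassium channel. Its intensity was 2324, 1516 and 1449 in TIG1A cells and 185, 125 and 99.5 in TIG1B cells, a log2 difference of 3.70 (standard error 0.30, limma adjusted p = 0.0413). DHRS2, a short-chain dehydrogenase of mitochondria and nucleus, gave 13321, 10120 and 9125 against 1582, 1043 and 1485 (log2 difference 2.99, adjusted p = 0.0413 from limma). Its other probe set, at 20379, 20359 and 20433 against 2609, 3302 and 4294, was also called (2.61, limma adjusted p = 0.0413). DHRS2 was therefore among the brighter transcripts of TIG1A cells on both of its probe sets. ARC, an immediate early gene best known from neurons, gave 916, 799 and 823 against 148, 144 and 82.8 (log2 difference 2.81).

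EHF, an ETS-family transcription factor of epithelia, had intensities of 436, 362 and 403 in TIG1A cells and of 73.7, 75.4 and 75.5 in TIG1B cells (log2 difference 2.42, standard error 0.12, limma adjusted p = 0.023). Of its 5 other kept probe sets none was called, 3 had no overlap in the same direction, and all were dim. S100A4, a calcium-binding protein linked to cell motility, was at 1760, 1525 and 1389 against 374, 339.6 and 343 (2.14). KLK6, a secreted kallikrein protease, was at 517, 478 and 461 against 133.1, 136 and 112 (1.94). DDIT4, an inhibitor of mTORC1 that responds to stress, was at 4104, 3989 and 4158 against 943, 1248 and 1378 (1.80). PDE4B, which breaks down cyclic AMP, was at 731, 749 and 774 against 209, 199 and 268 (1.75) and called on a further probe set as well (1.66). All of these genes were chosen among called genes whose lines did not overlap, so the gap between the lines is no separate result.

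The remaining genes of the 15 with the largest rise were ZNF251, GLIS3, CCDC126, SCG2, FAM220A, AKR1C3 and PPP2R2D, with log2 differences of 2.15, 1.80, 1.63, 1.62, 1.60, 1.58 and 1.58. ZNF251 and GLIS3 encode zinc finger proteins, SCG2 a secretogranin of secretory granules, AKR1C3 an aldo-keto reductase of steroid and prostaglandin metabolism, and PPP2R2D a regulatory subunit of protein phosphatase 2A. FUT7, a fucosyltransferase of sialyl Lewis x synthesis, had the lowest adjusted p of all (0.00152 from limma) and is named here after its values were seen. It gave 153, 149 and 136 against 7.02, 7.78 and 6.94, at least 2.25-fold higher since TIG1B cells lay below the array medians, while its other kept probe set pointed the other way without passing (log2 difference -1.51). TIG1B cells lay below the medians on all 3 arrays for 12 of the 86 probe sets called higher, and TIG1A cells for 10 of the 49 called lower.

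In the other direction TAGLN, the smooth muscle actin-binding protein transgelin, had intensities of 78.0, 106 and 64.3 in TIG1A cells and 310.2, 457 and 470.1 in TIG1B cells (log2 difference -2.32, standard error 0.26, limma adjusted p = 0.0423). A second probe set was called too (-1.97), and a dim one was not (0.67, adjusted p = 0.694 from limma). RFTN1, which encodes the lipid raft protein raftlin, was at 164, 125 and 136 against 697, 597 and 556 (-2.12). KRTAP3-1, a keratin-associated protein of hair, was at 142, 182 and 137 against 477, 674 and 745 (-2.03). PCDH7, a protocadherin, was at 463, 493 and 469 against 1202, 1696 and 1892 (-1.72). TIG1A cells stood lowest for these genes on each of their 3 arrays, which was a condition of their choice.

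NFIB, a transcription factor of the nuclear factor I family, was at 134, 168 and 199 against 524, 573 and 496 (log2 difference -1.68), and its 5 other kept probe sets lay between -1.04 and -1.45 without passing. NCKAP1, a subunit of the WAVE complex that drives actin assembly, was at 2768, 1957 and 2201 against 8494, 6698 and 6797 (-1.67), although its other kept probe set showed 0.08. SLC4A7, a sodium bicarbonate cotransporter, was called on 2 probe sets (-1.59 and -1.46). ETS1, an ETS-family transcription factor, was at 401, 410.1 and 491 against 1173, 1525 and 1106 (-1.54), and FOSL1, the AP-1 subunit FRA1, at 1168, 837 and 899 against 2736, 2588 and 3013 (-1.53). CST6 (cystatin E/M), CPA4 (a carboxypeptidase), PPP1R14C (a phosphatase 1 inhibitor), SESN3 (a sestrin), UBASH3B (a phosphatase) and CASP4 (an inflammatory caspase) completed the 15, with log2 differences from -1.67 to -1.27.

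**Figure D2:**
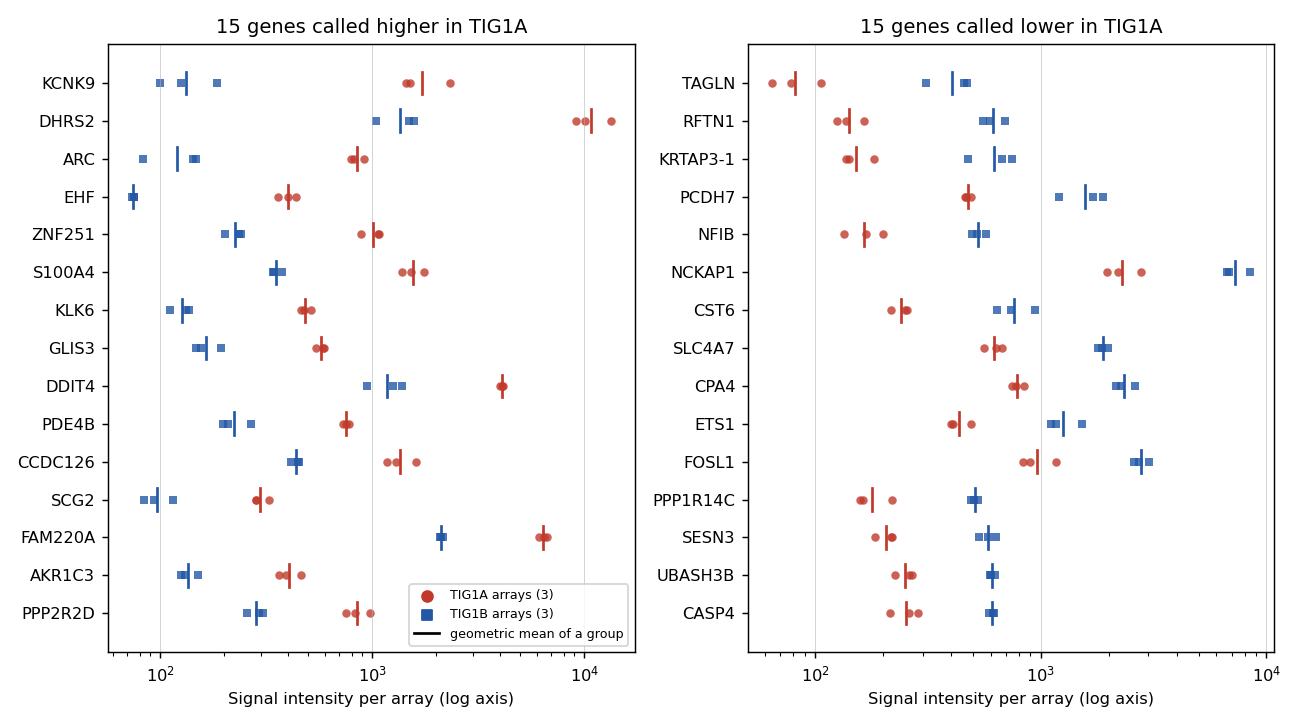
Signal intensity on a log axis of the 15 genes with the largest difference among those called in each direction, with 3 TIG1A arrays (red circles), 3 TIG1B arrays (blue squares) and the geometric mean of each line (bars). All 30 genes were chosen among those whose lines do not overlap. KCNK9, for example, lies at 1449 to 2324 in TIG1A and 99.5 to 185 in TIG1B cells.

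Genes with a difference were unevenly placed along the chromosomes. When all measured genes of the autosomes and the X chromosome, each by its brightest probe set, were put in order and divided into 505 runs of at least 25 neighbouring genes, 458 runs had a median log2 difference within 0.2 of 0. All 15 runs with a median under -0.4 lay on chromosome 11, and 6 of the 7 runs with a median over 0.4 lay at an end of chromosome 7, 8 or 10. The other one, from ANKRD46 to TRPS1 on the long arm of chromosome 8 (0.411), and the run after it, from EIF3H to ATAD2 (0.382, with 13 of 25 genes higher and 1 lower with no overlap), lie outside the stretches. The following stretches were marked out after these medians had been seen and were given no test. Over all genes by their brightest probe set, TIG1A lay above TIG1B with no overlap for 14.6% and below it for 14.6%, with 0.388% called higher and 0.248% lower.

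On the long arm of chromosome 11, the stretch from MS4A15 to B3GAT1-DT (60756867 to 134505661 on GRCh38.p14) held 19 consecutive runs with medians of -0.69 to -0.21. The run before it, from TNKS1BP1 to MS4A6A, had a median of -0.012 and was not part of it. Of the 485 measured genes of the stretch 408 were lower in TIG1A cells, 263 (54.2%) with no overlap, while 8 (1.6%) were higher with no overlap. The median log2 difference was -0.458, against 0.023 for the other 275 genes of chromosome 11. As the median deviation of a gene from its mean over the 6 arrays, the stretch stood at -0.19, -0.227 and -0.254 on the TIG1A arrays and at 0.261, 0.237 and 0.254 on the TIG1B arrays. The shift was thus of like size on every array of a line. By position, 16 of the 49 probe sets called lower lay in it and none of the 86 called higher, and they belong to 14 genes that include TAGLN, CST6, ETS1, FOSL1, SESN3, UBASH3B and CASP4.

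Within this stretch the 3 lowest medians belonged to the runs from UVRAG-DT to PCF11 (-0.692), TRMT112 to DPF2 (-0.61) and MRE11 to CASP4 (-0.592). CLNS1A, a subunit of the methylosome that prepares Sm proteins for splicing, was at 6777 ± 342 (SD, n = 3) in TIG1A and 11975 ± 48.4 in TIG1B cells (log2 difference -0.82). NARS2, the mitochondrial asparaginyl-tRNA synthetase, differed by -0.96, POLA2, the regulatory subunit of DNA polymerase alpha, by -1.01, and VPS51, a subunit of the GARP tethering complex, by -0.81. None of these 4 genes passed (limma, adjusted p = 0.0517, 0.0558, 0.0517 and 0.0516).

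On the short arm of chromosome 7, 100 measured genes from FAM20C to NFE2L3 (192571 to 26187137) had a median log2 difference of 0.733, and the other 501 genes of the chromosome 0.002. TIG1A cells were higher for 89 of the 100 genes, with no overlap for 72 and with 3 in the opposite direction. Every TIG1A array deviated by 0.37 to 0.4 and every TIG1B array by -0.397 to -0.368 at the median. Of the 86 probe sets called higher, 17 lay here, for 13 genes. FAM220A was at 6448, 6673 and 6136 against 2104, 2155 and 2082, and EIF2AK1, the haem-regulated kinase of translation factor eIF2 alpha, was called on 2 probe sets (log2 differences 1.17 and 1.11). USP42, a deubiquitinase, differed by 1.39. GET4 and SUN1, which act in the insertion of tail-anchored proteins and in the nuclear envelope, differed by 1.02 and 0.97 without passing.

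At the end of the long arm of chromosome 8, 40 genes from PARP10 to C8orf33 (143977158 to 145056030) had a median of 0.732, against 0.074 for the other 425 genes, and 39 of the 40 were higher in TIG1A cells. The stretch stood at 0.562 on TIG1A array 1 and at 0.289 and 0.283 on arrays 2 and 3, so that array 1 weighed most, and at -0.342 to -0.302 on the TIG1B arrays. MAF1, the repressor of RNA polymerase III, was at 8601, 8824 and 8848 against 3583, 3899 and 4134 (log2 difference 1.18), and COMMD5, a subunit of the Commander complex, at 793, 793 and 800.1 against 372, 345 and 338 (1.18). KCNK9 and ARC lie on the same arm, before this stretch. The 46 genes at the end of the long arm of chromosome 10, from C10orf88 to CYP2E1 (122930901 to 133539123), had a median of 0.433 against -0.025 for the rest, with 31 of 46 higher with no overlap and 3 called, among them PPP2R2D and BNIP3. Without both arrays numbered 1 the medians of the 4 stretches were -0.471, 0.729, 0.665 and 0.375, in the order given. Outside of them 12188 genes had a median of 0.009, with 32 called higher and 22 lower.

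**Figure D3:**
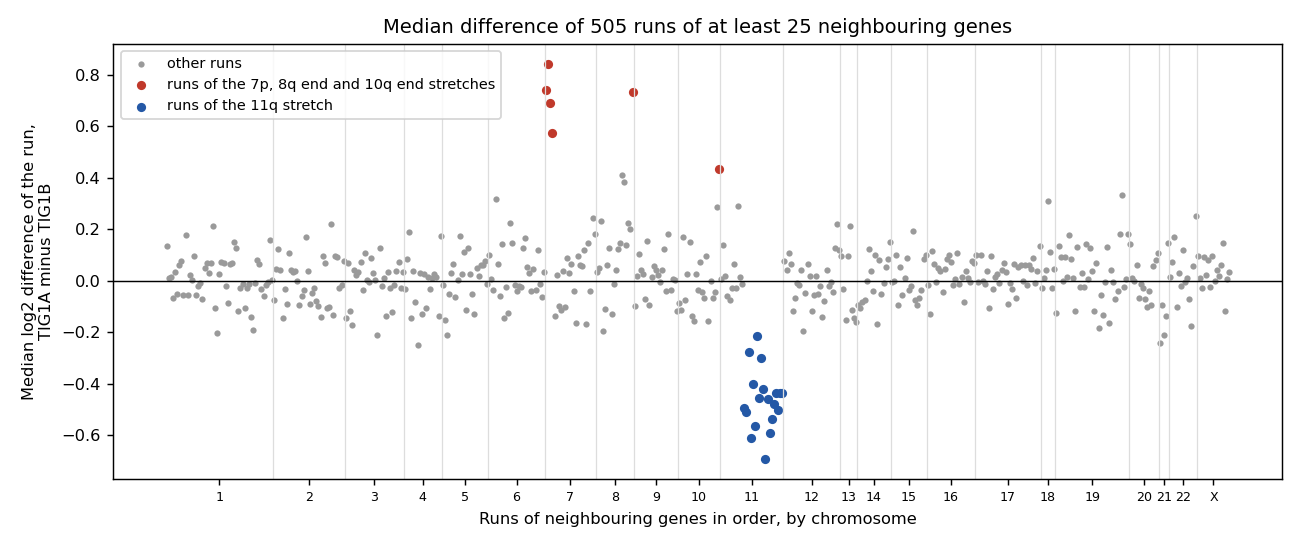
Median log2 difference (vertical axis) of 505 runs of neighbouring genes in chromosomal order (horizontal axis, labelled by chromosome). The 19 runs of the chromosome 11 stretch (blue) lie at -0.69 to -0.21 and the runs of the chromosome 7, 8 and 10 stretches (red) at 0.433 to 0.842, while most other runs (grey) lie within 0.2 of 0.

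**Figure D4:**
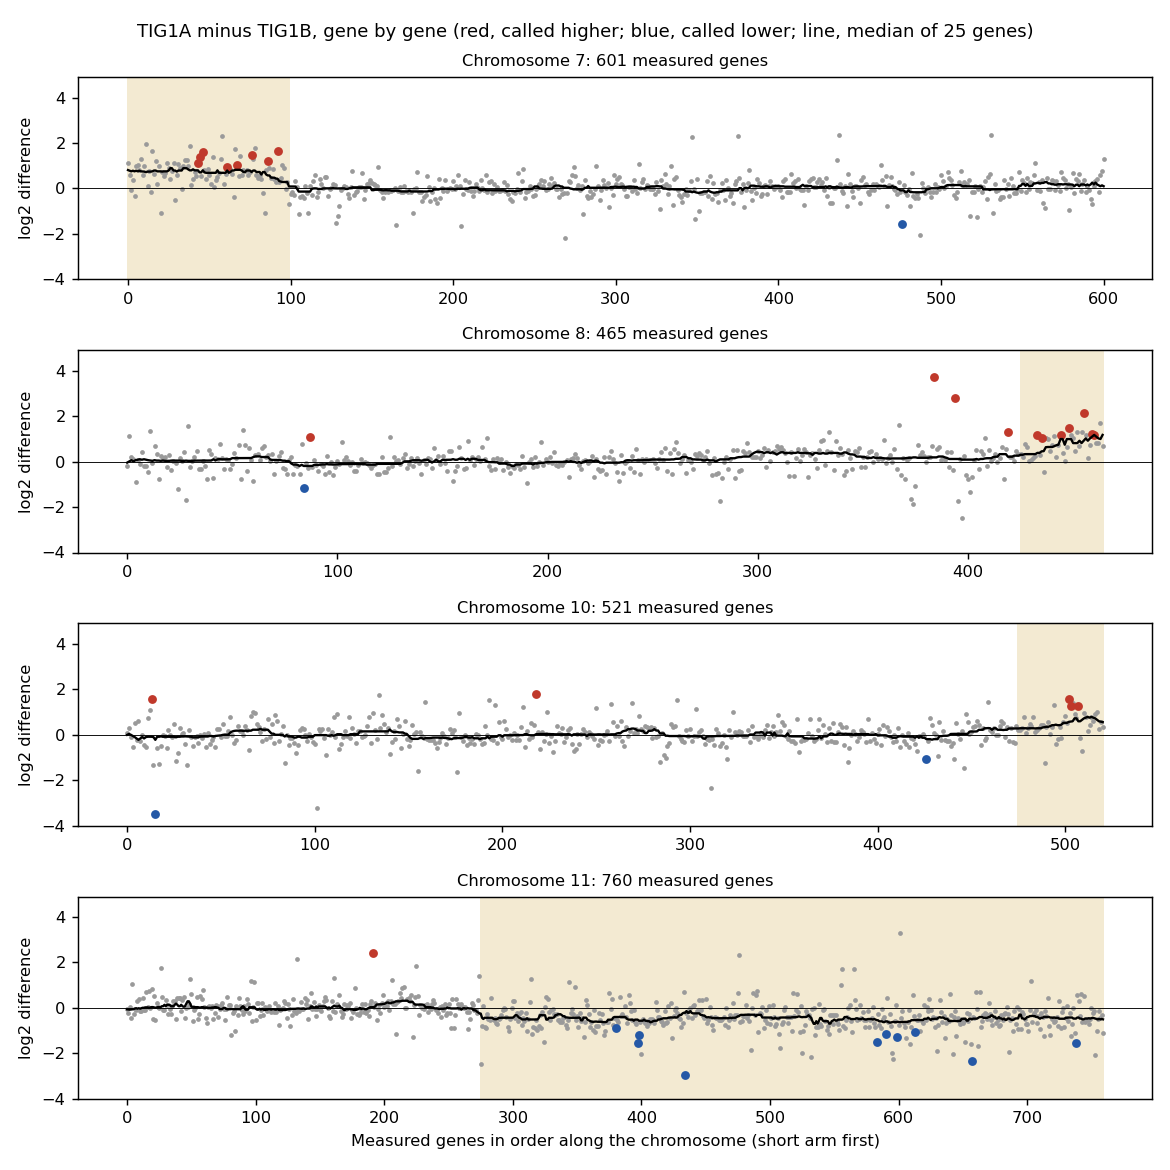
Log2 difference of each measured gene in order along chromosomes 7, 8, 10 and 11, with the stretches described in the text shaded, called genes in red (higher) or blue (lower) and the running median of 25 genes as a line. The running median steps away from 0 at the edge of the shaded stretch on chromosomes 7 and 11 and climbs within it on chromosomes 8 and 10.

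Gene lists were described by the brightest probe set of each member. Each count with no overlap below stands against 14.6% of all genes in each direction, and a count near that share sets no list apart. Calls stand against 0.388% of all genes higher and 0.248% lower. Among the G protein-coupled receptor kinases, which phosphorylate active receptors and recruit arrestins, GRK5 had 4 kept probe sets. It was called on 1 of them, at 2004, 2206 and 2254 in TIG1A cells against 868, 839 and 1009 in TIG1B cells (log2 difference 1.25, standard error 0.13, limma adjusted p = 0.0423). The brightest, at 6924 ± 1217 (SD, n = 3) against 2593 ± 523, showed 1.42 and missed the threshold (adjusted p = 0.0669 from limma), and the dimmer ones showed 1.02 and 0.41. No array of TIG1B cells reached the lowest TIG1A array on 3 of the 4. By real-time RT-PCR after the same dose and time, the paper reports a larger fold rise of GRK5 mRNA in TIG1B than in TIG1A cells. That order is opposite to the one on these arrays, and the reason was not tested. Of the 6 measured kinases and arrestins 2 were higher and 2 lower with no overlap, and both of the lower ones, GRK2 (-0.41) and ARRB1 (-0.38), lie in the chromosome 11 stretch. GRK5 (119207571 to 119459745) lies on chromosome 10 in the run just before the marked stretch, from PDZD8 to FAM24B, which had a median of 0.287 with 9 genes higher and 2 lower with no overlap. ZMAT3, a p53 target, had 5 kept probe sets with differences of 0.01 to 0.30, and HOXB7, a homeobox factor, 3 with -0.23 to 0.03, none called.

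Replication-dependent histone genes, which encode the core histones made in S phase, had a median log2 difference of 0.763, the highest of the lists with at least 10 measured genes, and of 0.506 with intensities raised to the array median. All 11 measured members lay above 0, 9 of them with no overlap (14.6% of all genes), and 2 were called. H2AC6 was at 528, 504 and 522 against 203, 220.4 and 194 (1.33, limma adjusted p = 0.0413), and H2BC5 at 2449, 2034 and 2389 against 1069, 1001 and 996 (1.16, limma adjusted p = 0.0423). H3C2 and H4C11 followed with 1.11 and 0.90 without passing. The other 20 genes of the list did not reach the filter, and signal of near-identical histone genes can be shared between probe sets. Which forms of the histone transcripts the probe sets read was not tested.

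Most genes that drive the cell cycle lay below 0. Of 30 mitosis genes 29 lay below 0 with a median of -0.274, 15 were lower in TIG1A cells with no overlap and none higher, and none was called. CCNA2 (cyclin A2) had mean intensities of 2642 and 3946, BUB1B, a spindle checkpoint kinase, 3301 and 4366, and FOXM1, a transcription factor of mitotic genes, 647 and 904. Of 35 genes of G1 and S phase 30 lay below 0 with a median of -0.244, and 14 were lower with no overlap, again with no call. The replicative helicase subunits MCM2 and MCM3 differed by -0.52 and -0.53, CDC6, which loads the helicase, by -0.60 and RRM1, a subunit of ribonucleotide reductase, by -0.48. These differences were small beside those of single genes but pointed one way through both lists. Without both arrays numbered 1 the medians were -0.247 and -0.278. Among 23 p53 targets, which include inhibitors of the cell cycle, 2 were higher and 3 lower with no overlap and none was called.

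Interferon-stimulated genes, which answer type I interferon in antiviral defence, had a median of 0.473 over 26 measured members. With no overlap 9 were higher and 1 lower, and none was called. IRF7, a transcription factor that amplifies the response, was at 504, 476 and 422 against 239, 256 and 292 (log2 difference 0.83, limma adjusted p = 0.0764). IFIT1, which binds foreign RNA, was at 226, 234 and 155 against 43.7, 90.7 and 87.1 (1.52, limma adjusted p = 0.125). OAS1, an oligoadenylate synthetase, was at 119.6, 115 and 75.2 and below the array medians in TIG1B cells. ISG20, an exonuclease, differed by 0.95 on its brightest probe set and was called on a dimmer one (1.48, limma adjusted p = 0.0423). Class I antigen presentation genes, many of which respond to interferon too, had a median of 0.054, with 4 of 17 higher with no overlap, among them HLA-C (0.37), HLA-B (0.30) and the transactivator NLRC5 (1.89).

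The stress response list held 31 measured genes, of which 2 were called higher (DDIT4 and CRELD2), 10 were higher with no overlap and 1 was lower. CRELD2, a secreted protein of the endoplasmic reticulum, was at 29742, 26648 and 27839 against 14330, 13554 and 14096 (log2 difference 1.00, limma adjusted p = 0.0423). ASNS, asparagine synthetase, was at 11323, 10929 and 9369 against 5348, 5233 and 4539, and CHAC1, which degrades glutathione, at 614, 329 and 403 against 152, 189.7 and 143. These missed the threshold (1.06 and 1.43, limma adjusted p = 0.0517 and 0.0902). The list joins targets of ATF4, the factor of the integrated stress response, with chaperone genes of the unfolded protein response, so the promoters of its members were searched for the element known for each branch.

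Promoters were taken from RefSeq (GRCh38.p14), 250 bases before to 50 bases after a gene's start, for all 31 genes and on both strands. Sequence near the start of 4 genes is shown, since their promoters hold the searched letters (in capitals, reverse complement where the element lies on the other strand), with up to 30 bases on each side.
CRELD2, chr22:49918524-49918602, + strand: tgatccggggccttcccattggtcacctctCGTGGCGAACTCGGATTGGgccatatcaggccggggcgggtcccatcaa
CHAC1, chr15:40953232-40953299, + strand: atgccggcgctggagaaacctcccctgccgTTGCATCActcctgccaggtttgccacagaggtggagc
ASNS, chr7:97872439-97872506, - strand: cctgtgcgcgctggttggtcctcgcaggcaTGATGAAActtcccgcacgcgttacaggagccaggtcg
IFIT1, chr10:89392476-89392546, + strand: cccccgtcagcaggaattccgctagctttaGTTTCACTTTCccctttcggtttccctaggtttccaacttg

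The C/EBP-ATF response element, searched as TGATGNAA, was found in the promoters of ASNS, ATF3, CHAC1 and HERPUD1, 4 of the 31 genes (12.9%), and in 4.46% of all 27305 genes of the table. These 4 genes had a median log2 difference of 0.687 and 3 of them were higher with no overlap. The 27 genes without it had a median of 0.08, and 7 were higher with no overlap. The endoplasmic reticulum stress response element, searched as CCAAT and CCACG with 9 free bases between them, was found for 7 of the 31 genes (22.6%, and 0.0916% of all genes). They were CRELD2, the chaperone or folding genes CALR, CANX, HSP90B1, HSPA5 and PDIA6, and XBP1, a transcription factor of this response. Their median was -0.01, and only CRELD2 was higher with no overlap. The 24 genes without this element had a median of 0.191, and 9 were higher with no overlap. The interferon-stimulated response element, searched as GAAA and GAAAC with 2 free bases between them, was found for 15 of the 21 measured interferon-stimulated genes with a promoter in the table (71.4%, and 0.952% of all genes), with a median difference of 0.454, against 0.495 for the 6 without it. A match describes these letters in this window and is no evidence that a factor binds there.

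Of 36 hypoxia targets and glycolysis genes 2 were called higher and 9 were higher with no overlap against 3 lower, with a median of 0.137. BNIP3, a mitophagy receptor, was at 8425, 9371 and 9671 against 3212, 4184 and 4123 (log2 difference 1.26, limma adjusted p = 0.0486) and lies in the chromosome 10 stretch. ENO2, neuronal enolase, was at 10357, 9128 and 9457 against 3662, 4508 and 4691 (1.18, limma adjusted p = 0.0488). AK4, a mitochondrial adenylate kinase, differed by 0.64 and PFKFB3, an activator of glycolysis, by 0.47, without passing. Of 28 antioxidant genes only AKR1C3 was called, and NQO1, a quinone reductase under NRF2, showed 0.42. Sterol and fatty acid synthesis had a median of -0.117 (-0.069 without 4 genes of the chromosome 11 stretch) with no call, and 9 of 26 genes lower and 3 higher with no overlap. SREBF2, the master factor of cholesterol synthesis, differed by -0.63, and DHCR7 (-0.62) and SC5D (-0.50), enzymes of its last steps, lie in the chromosome 11 stretch. Among 21 amino acid transporters SLC1A3 differed most (-1.11, limma adjusted p = 0.0521).

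Growth signalling was split in both directions. Among 21 ETS factors, which act downstream of ERK, EHF was called higher and ETS1 lower, with 6 higher and 4 lower with no overlap. ETV1, in the chromosome 7 stretch, was called on a dimmer probe set at 129, 113 and 120.2 against 18.7, 35.9 and 30.3 (at least 1.86-fold higher, limma adjusted p = 0.0486). ELK3 and ETV6 differed by -0.72 and 0.69. Among 17 feedback inhibitors of ERK, DUSP5, a nuclear ERK phosphatase, was called lower at 1538, 1619 and 1520 against 3356, 3435 and 2917 (log2 difference -1.05, limma adjusted p = 0.0423), and DUSP10, which acts on p38 and JNK, showed 1.09 (limma adjusted p = 0.0828). DUSP6, the cytoplasmic ERK phosphatase, differed by -0.36. Among 20 AP-1 and immediate early genes FOSL1 was called lower, and JUND (0.67) and NR4A1 (0.84) were higher with no overlap but did not pass. Outside the list and named after their values were seen, NR4A2 and NR4A3, nuclear receptors of the same family as NR4A1, were called higher (1.37 and 1.45, limma adjusted p = 0.0413 and 0.0423), as was ARC. NR4A2 and NR4A3 were each called on 1 of 3 kept probe sets, which for NR4A2 was not the brightest. The ligands and receptors of growth factors had no call among 28, with 8 on each side with no overlap. FGF2 (-1.24), the FGF carrier FGFBP1 (-1.16) and EGFR (-0.66) were lower and PDGFC (0.61) higher, each with no overlap. EPHA2 (-0.61), EPHB6 (0.62) and the ligand EFNB2 (0.40) had the smallest p among the 12 Eph receptors and ephrins.

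Of 28 core genes of the Wnt pathway none was called, and the median was 0.037. With no overlap 5 were higher and 1 lower, against 14.6% of all genes in each direction. AXIN2, a feedback inhibitor and target of beta-catenin, was at 1641 ± 16.7 (SD, n = 3) against 886 ± 110.1 (log2 difference 0.90, limma adjusted p = 0.0643). Of 12 targets and stem cell genes 2 were higher and 5 lower with no overlap, among them CCND1 (cyclin D1, -0.52) and the protease MMP7 (at least 1.52-fold lower), both in the chromosome 11 stretch. The ligand WNT16, which is in neither list and is named after its values were seen, was called higher at 889, 907 and 940 against 507, 502 and 516 (0.84, limma adjusted p = 0.0486). This was the dimmer of its 2 kept probe sets, and the other was not called. Of 30 BMP, ID and Notch genes 9 were higher and 6 lower with no overlap, none was called, and ID4 (0.81), BMP1 (0.60) and SMAD7 (1.21), an inhibitor of TGF-beta and BMP receptors, had the smallest p among the higher ones. Hippo pathway and YAP target genes had 1 of 23 higher and 9 lower with no overlap and a median of -0.099. YAP1 itself, AMOTL1 and RDX lie in the chromosome 11 stretch, and the 20 other genes had a median of -0.037, with 6 lower and 1 higher with no overlap. The YAP targets CCN2 (-1.12) and CCN1 (-1.30) were lower with no overlap, and RDX, which encodes radixin, differed by -0.54.

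Of 29 genes of prostaglandin E2 and cyclic AMP signalling PDE4B was called. PRKACB, a catalytic subunit of protein kinase A, differed by 0.77 and ABCC4, which exports prostaglandin and cyclic AMP, by -0.90, without passing. CRABP2, which delivers retinoic acid to its receptors, was at 3530, 2591 and 2437 against 755, 1160 and 1356 (log2 difference 1.41, limma adjusted p = 0.0991), while none of the 13 retinoid genes was called. Among 12 progesterone and glucocorticoid receptor genes and targets none was called. PGR, whose ligand-binding domain is, as background, part of the GeneSwitch regulatory protein, lies in the chromosome 11 stretch. Its probe set was at 10239 ± 1071 (SD, n = 3) against 7526 ± 323 (0.44, limma adjusted p = 0.186), opposite in direction to the median of that stretch. Whether this signal comes from the gene itself, from the plasmid pSwitch or from both was not tested. It may therefore not give the level of the cells' own PGR transcript. NR3C1, the glucocorticoid receptor, which MFP also binds, was at 830.1 and 509 (0.70).

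Cell shape and matrix genes were called in both directions. Of 15 mesenchymal genes S100A4 was called higher and TAGLN lower, with 12 below 0 and a median of -0.309. It was -0.177 with intensities raised to the array median, -0.174 without both arrays numbered 1 and -0.177 without the members in the chromosome 11 stretch, TAGLN and MMP1. MMP1 (-2.25), a collagenase whose gene lies in the chromosome 11 stretch, did not pass. Among 15 kallikreins and serpins KLK6 was called, SERPINI1 differed by 1.00, SERPINB5 (maspin) by -0.88 and SERPINH1, a collagen chaperone in the chromosome 11 stretch, by -1.05, without passing. Among 31 collagens, laminins and integrins none was called. COL6A1 (0.80) and COL1A1 (0.74) were higher and COL12A1 (-1.28) and LAMA4 (-1.21) lower with no overlap. Junction and keratin genes had a median of 0.052, with desmocollin DSC2 at 0.75 and plakophilin PKP2 at -0.60.

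Other lists held no called gene beyond BNIP3 in the BCL2 and death receptor list, where BID differed by 0.50, CFLAR by -0.54 and PMAIP1 by -0.48. REL (0.66) and NFKBIE (0.58) had the smallest p of the 21 NF-kappaB genes, of which 4 were higher and 4 lower with no overlap. RGS9 was at least 1.21-fold higher and RGS7 at least 1.05-fold lower, and no RGS gene was called. Of 17 HOX genes 2 were higher and 2 lower with no overlap, and of 13 colon differentiation markers 1 and 1. Cytosolic ribosomal proteins, which make up the 40S and 60S subunits, had 50 measured members, which lay between -0.29 and 0.35 with a median of 0.019, and 1 had no overlap. FAU (-0.29) and RPS25 (-0.12), which were among those with the smallest p, lie in the chromosome 11 stretch. List medians changed sign under another scaling, with a floor at the array medians or without both arrays numbered 1 for retinoid genes, receptor kinases, RGS, AP-1, growth factors, the BCL2 list, class I antigen presentation, collagens, colon markers, prostaglandin E2, ribosomal proteins, HOX genes and epithelial markers, and not for the lists given a direction above.

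**Figure D5:**
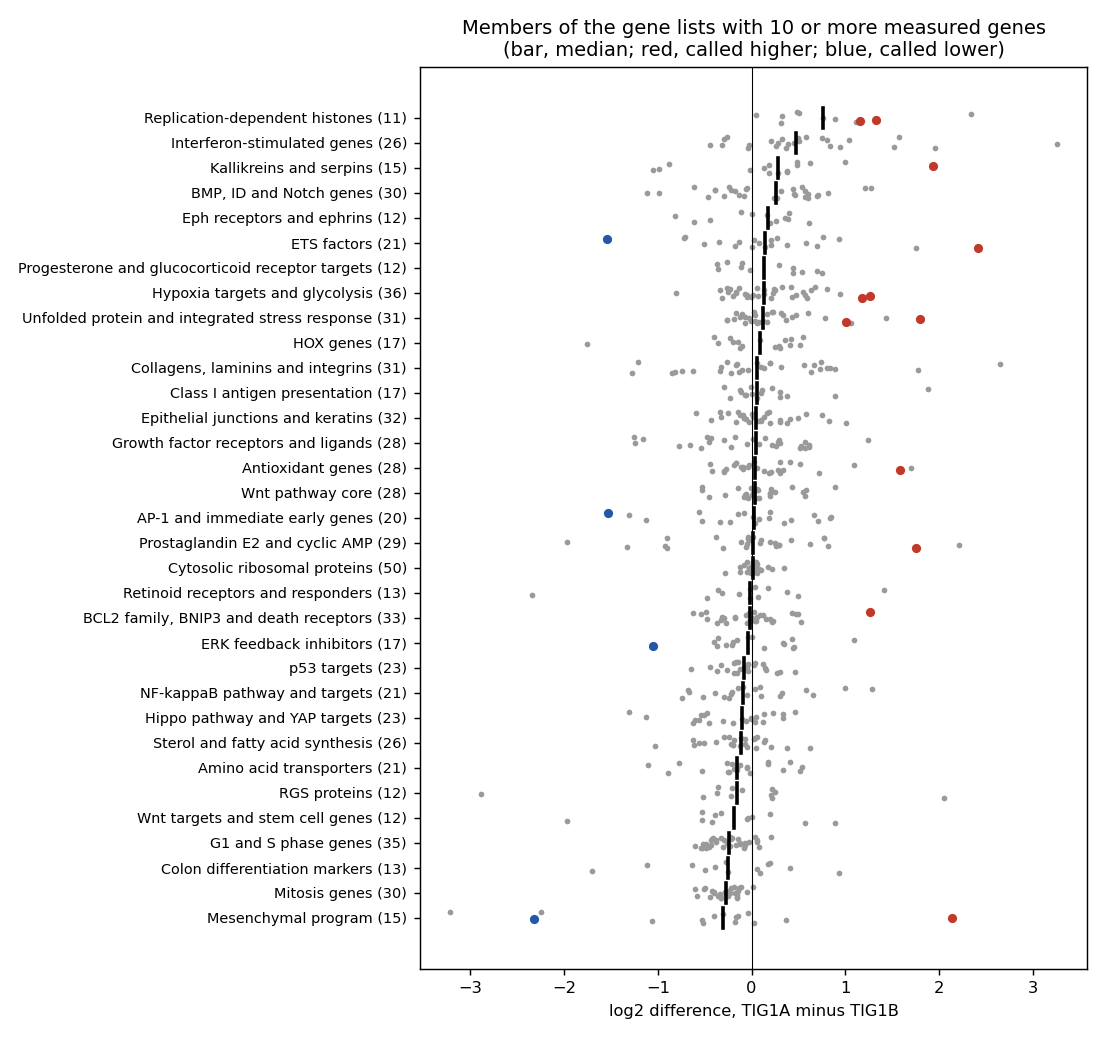
Log2 difference (horizontal axis) of each measured member of the lists with 10 or more measured genes, ordered by their median (black bar), with called genes in red (higher in TIG1A cells) or blue (lower). Histone genes lie on the right with a median of 0.763 and the cell cycle lists close together on the left of 0, while most lists are spread on both sides.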

How the data were processed

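Total RNA of 6 HCT116 cultures was measured on HG-U133 Plus 2.0 arrays. The authors deposited linear signal intensity, made with GCOS and scaled globally. Neither scans nor detection calls entered the work. The labels give 5 nM MFP and the description of the series 5 micromolar. The labels' dose was taken. The arrays hold 54675 probe sets, of which 62 array controls were set aside. The annotation gives 1 gene symbol for 41097, of which 41043 matched GRCh38.p14 by gene number, several for 1801 and none for 11777. Probe sets of TCF7, EEF1E1 and SUMO2 carry no single symbol in it and were not named.

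A linear model was fitted to log2 intensities with limma 3.58.1 in R 4.3.3 (residual degrees of freedom 4, prior 1.71 at the median). The fit was also run on simulated data with independent noise on each array. That simulation held no deviation shared by the arrays numbered 1, so it cannot show how far the calls depend on them. The main fit did not pair the lines by replicate number. Deviations of equally numbered arrays correlated at 0.224, 0.061 and 0.086. Array 2 of TIG1A with array 3 of TIG1B gave 0.088, and array 3 of TIG1A with array 2 of TIG1B 0.107. Arrays 2 and 3 thus correlated no less across numbers than within them. Deviations of the arrays numbered 1 correlated at -0.155 to -0.119 with arrays 2 and 3 of the other line. Whether equally numbered arrays share a batch was not tested. The members, lists and tests were chosen with earlier results of these data known. Named genes are the study's array genes and the 15 called genes per direction with the largest difference after raising intensities to the array median. Those 15 were taken only from probe sets whose lines did not overlap. Up to 4 genes of each list by smallest p, and up to 3 in each of the 3 highest and 3 lowest runs, were named too. Tables were made with Python and pandas. Replicates are separate samples of 1 clone each, and their number limits the precision.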

Additional observations from a re-analysis of the deposited data

How the results depend on the processing

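Of probe sets called higher, lower and at least 2-fold different (86, 49 and 126), quantile normalization gave 109, 71 and 154, centring each array on its median 19, 5 and 24, an offset of 50 before log2 270, 198 and 226, and raising intensities to the array median 292, 222 and 304. A filter at the 75th percentile, which left 14251 probe sets, gave 777, 723 and 255, trend and robust options of limma's eBayes 679, 601 and 336, and all 9 arrays in the fit 92, 42 and 115, of which 53, 26 and 77 were shared. The methods' t-test gave 2393, 2341 and 674 at its threshold on unadjusted p and 50, 40 and 33 after Benjamini-Hochberg adjustment. With no filter, limma called 0, 0 and 0, with 4789 probe sets at an unadjusted p under 0.05. The replicate block also gave 0, 0 and 0 (5545 at that level; lowest adjusted p 0.168), as did leaving out both arrays numbered 1, chosen after seeing the data (4925). Leaving out 1 array in turn gave 1 to 2, 0 to 1 and 1 to 3. All 135 called probe sets kept their direction under every limma setting in which they were tested. The median over all probe sets moved from 0.00244 to 0.0215 with median centring. Of the named genes, probe sets that were not called changed sign for ZMAT3 (-0.0094 with quantile normalization, -0.12 and -0.03 without TIG1A replicate 3 and TIG1B replicate 1, with a range of -0.12 to 0.089 when 1 array was left out, and on another probe set -0.0067, -0.17 and -0.12 without TIG1A replicates 2 and 3 and TIG1B replicate 1, range -0.17 to 0.23), HOXB7 (-0.0012 and -0.034 without TIG1A and TIG1B replicate 2, range -0.034 to 0.10) and THY1 (0.077 without TIG1A replicate 2, range -1.16 to 0.077). The cause of these changes was not tested.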
